A study of Bos taurus with 6 samples.

Results

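The miR-23, miR-24 and miR-27 miRNAs of bovine serum EVs are described here through 8 of the 359 known Bos taurus miRNAs, out of 706 miRNAs listed in all. They were taken by name and were bta-miR-23a, bta-miR-23b-3p, bta-miR-23b-5p, bta-miR-10174-3p, bta-miR-10174-5p, bta-miR-24-3p, bta-miR-27a-3p and bta-miR-27b. EVs are membrane-enclosed particles shed by cells, and each library held the small RNAs of the serum EVs of 1 cow. All cows were female Holsteins in mid lactation. The 3 control cows ate a TMR (total mixed ration) for 30 days. Over the same days, whole cotton seed and soybean hull replaced part of the alfalfa hay and corn silage for the 3 tested cows. Blood was drawn without anticoagulant and EVs were bound to an affinity membrane. The tissue an EV came from was not recorded, and fewer EVs of a source and less miRNA per EV cannot be told apart. Known miRNA counts per library ran from 1226928 to 2088249, and levels below are in CPM, with the known miRNA counts of the library as its total.

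In mammals these miRNAs come from a pair of clusters, each transcribed as a unit. One cluster holds miR-23a, miR-27a and a copy of miR-24, and the other holds miR-23b, miR-27b and a further copy of miR-24. In the RefSeq gene table for ARS-UCD2.0, MIR23A is followed by MIR27A and MIR24-2, and MIR23B by MIR27B and MIR24-1. Names were matched for 6 of the 8 members. The miR-24 copies give the same mature 3p sequence, so a count of bta-miR-24-3p cannot be assigned to either cluster. The miR-27 family is known for restraining fat cell formation and lipid metabolism, miR-24 for restraining the cell cycle, and miR-23 for its action on glutamine metabolism. The clusters are well expressed in blood vessels and blood-forming cells, and miR-23a serves in serum and plasma work as the steady partner of the red cell miRNA miR-451 in a haemolysis ratio.

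The listed sequences show which of the 8 names can be told apart by sequencing. They are given 5′ to 3′ in the DNA letters of the count table, with the seed (bases 2 to 8, which pair with target mRNAs) in capitals.
bta-miR-23a: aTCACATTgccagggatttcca
bta-miR-23b-3p: aTCACATTgccagggattaccac
bta-miR-10174-3p: aTCACATTgccagggattaccacg
bta-miR-23b-5p: gGGTTCCTggcatgctgattt
bta-miR-10174-5p: tGGGTTCCtggcatgctgattt
bta-miR-24-3p: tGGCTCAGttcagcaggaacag
bta-miR-27a-3p: tTCACAGTggctaagttccg
bta-miR-27b: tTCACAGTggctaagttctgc

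The miR-23 3p sequences shared the seed TCACATT and the miR-27 sequences the seed TCACAGT, and no other known miRNA in the table held the seed of a member. No other known sequence lay within 2 edits of a member. Counted from the 5′ end, bta-miR-23a and bta-miR-23b-3p differed by T19A over the 22 bases they share, and bta-miR-27a-3p and bta-miR-27b by C19T over 20 bases. The 24-nt bta-miR-10174-3p is the 23-nt bta-miR-23b-3p with 1 more base, G, at its 3′ end, which leaves the seed as it is. On the 5p arm the added base, T, stands at the 5′ end of bta-miR-10174-5p, and the seed moves from GGTTCCT to GGGTTCC. How the authors assigned reads that match both rows of such a pair is not given in the sources used here. The split within a pair is therefore uncertain, and the pairs were taken both singly and summed.

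The 8 members together took 1.38%, 1.27% and 1.18% of all known miRNA counts in control cows, against 1.24%, 1.37% and 1.37% in tested cows. Most of this was bta-miR-27b, with a mean level of 8779.9 over the 6 cows, at ranks 20 to 25 among known miRNAs. Next came bta-miR-23a with a mean of 2233, at ranks 35 to 45. Then followed bta-miR-24-3p with 580.4, bta-miR-10174-3p with 549, bta-miR-27a-3p with 451 and bta-miR-23b-3p with 369. Summed, bta-miR-23b-3p and bta-miR-10174-3p had a mean of 917, above that of bta-miR-24-3p. The 5p sequences were scarce, with 31.9 for bta-miR-23b-5p and 14.0 for bta-miR-10174-5p. Reads of small RNAs cover a miRNA whole, so the levels need no division by length, but adapters join different sequences with different ease and the levels are not molar amounts.

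**Figure D1:**
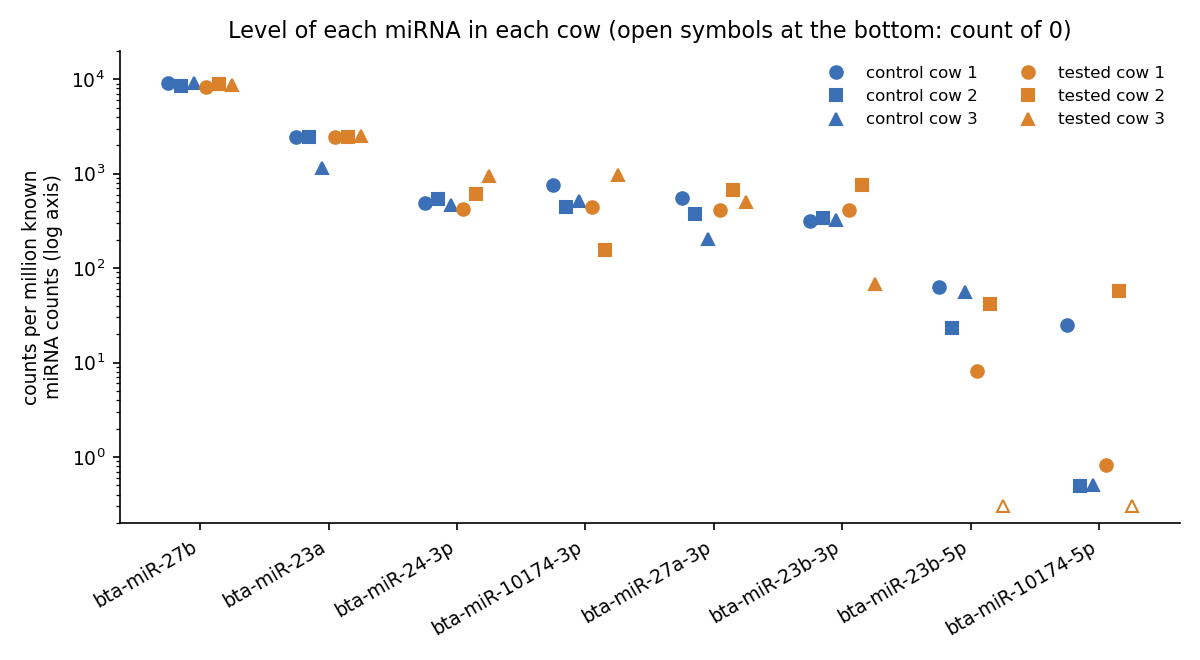
Level of each of the 8 miRNAs in each cow, in CPM of the known miRNA counts on a log axis, with control cows in blue and tested cows in orange. The 6 symbols of bta-miR-27b lie between 8239 and 9146, while those of bta-miR-23b-3p run from 68.5 to 753 and tested cow 3 has no count of either 5p sequence (open symbols).

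Neighbours in this order of single rows, in which the miR-23b 3p pair was not summed, were compared within each library by a sign-flip test. The order came from the means of the same libraries, so the pairs and their directions were chosen on the values tested. bta-miR-27b lay above bta-miR-23a in 6 of 6 libraries, with a mean log2 ratio of 2.02 ± 0.476 (SD, n = 6, exact permutation test, p = 0.031, adjusted over 7 pairs 0.0729). bta-miR-23a lay above bta-miR-24-3p in 6 of 6, with a mean log2 ratio of 1.95 ± 0.507 (SD, n = 6, exact permutation test, p = 0.031, adjusted 0.0729). bta-miR-23b-3p was above bta-miR-23b-5p in 6 of 6, by 4.44 ± 2.18 on the log2 scale (SD, n = 6, exact permutation test, p = 0.031, adjusted 0.0729). The last mean is raised by tested cow 3, where bta-miR-23b-5p had no count and the ratio of 8.16 rests on the pseudocount. This p is the smallest that 6 libraries allow, and it did not stay below 0.05 after adjustment. The neighbouring pairs in between did not differ beyond their spread. bta-miR-24-3p exceeded bta-miR-10174-3p in 2 of 6 libraries, bta-miR-10174-3p exceeded bta-miR-27a-3p in 5 of 6, and bta-miR-27a-3p exceeded bta-miR-23b-3p in 3 of 6. For these 3 pairs the p of the exact permutation test ran from 0.5 to 0.75 (adjusted 0.7 to 0.75). bta-miR-23b-5p exceeded bta-miR-10174-5p in 4 of 6 libraries, with both at 0 in tested cow 3 (exact permutation test, p = 0.125, adjusted 0.219).

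bta-miR-27b varied little between cows as a share of the known miRNA counts. Its level was 9146, 8538 and 9103 in control cows, against 8239, 8927 and 8726 in tested cows. The groups overlapped, and tested cow 1 was the lowest. Its coefficient of variation over the 6 cows was 3.99%, against a median of 21.5% over the 111 known miRNAs with at least 1000 counts in all, and it ranked 1 of 111 from the smallest. Counting error alone would give 0.741% to 0.995%. The rank depended on the scale, since it was 5 in CPM scaled by TMM, with 8.93%, and 42 when scaled to clean reads, where its value was 33.4% and the median 36.2%.

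bta-miR-23a had levels of 2437, 2444 and 1147 in control cows, against 2429, 2465 and 2478 in tested cows. In 5 of the 6 cows the values lay within 2429 and 2478, and control cow 3 was lower than each of the others. Its coefficient of variation was 23.9% in all and 0.832% without that cow, which is below the 1.39% to 1.83% of counting error. Without that cow it was 5.30% in CPM scaled by TMM and 30.4% when scaled to clean reads. bta-miR-27a-3p, its neighbour in the cluster, was also lowest in control cow 3. The levels of bta-miR-27a-3p were 554, 373 and 202 in control cows, against 411, 672 and 496 in tested cows. bta-miR-24-3p, which both clusters encode, stood at 485, 545 and 469.8 in control cows, against 423, 607 and 953 in tested cows. For bta-miR-24-3p, tested cow 3 was the highest and tested cow 1 the lowest, and control cow 3 did not stand apart. The paper lists its lowest RNA concentration for control cow 3, and the part of this in the levels was not tested.

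**Figure D2:**
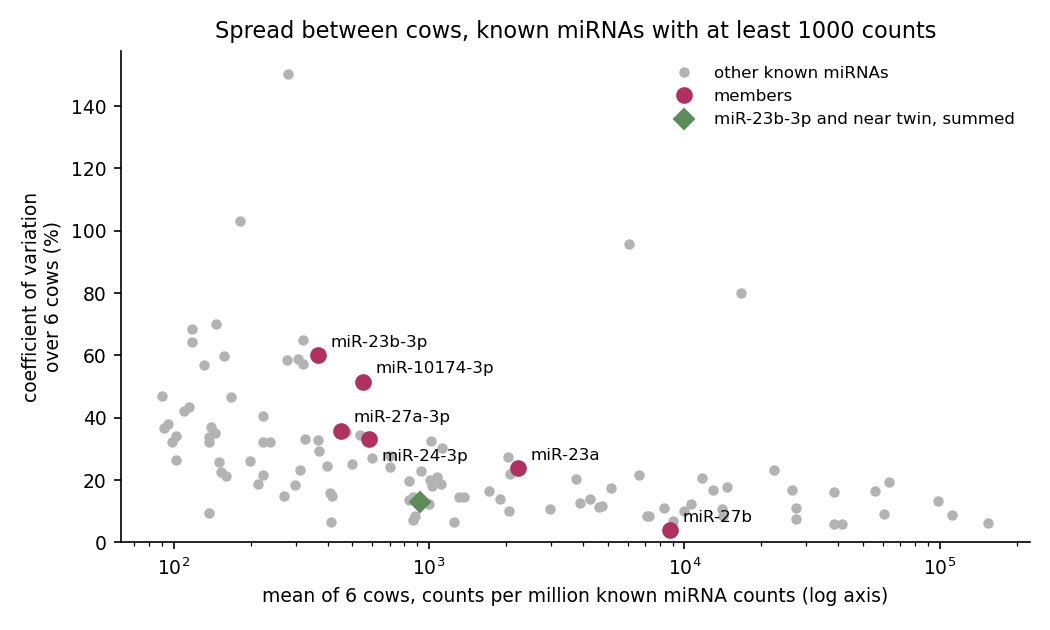
Coefficient of variation over the 6 cows against mean level (log axis) for the 111 known miRNAs with at least 1000 counts, the 6 members among them in red and the sum of bta-miR-23b-3p and bta-miR-10174-3p as a green diamond. bta-miR-27b lies at the bottom with 3.99%, and the sum lies at 13.0% where its parts lie at 60.1% and 51.6%.

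The rows bta-miR-23b-3p and bta-miR-10174-3p varied far more singly than together. bta-miR-23b-3p had levels of 319, 337 and 322 in control cows, against 412, 753 and 68.5 in tested cows. bta-miR-10174-3p had 767, 440.1 and 519 in control cows, against 446, 154 and 966 in tested cows. Tested cow 2 was the highest in the former and the lowest in the latter, and tested cow 3 was the reverse. Their sum was 1086, 777 and 841 in control cows, against 858, 907 and 1034 in tested cows, and no cow stood apart. The coefficient of variation was 60.1% and 51.6% for the single rows, at ranks 103 and 97 of 111, and 13.0% for the sum. Scaled to clean reads, it was 74.1% and 42.9% for the single rows and 25.9% for the sum.

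The share of the pair that was counted as the shorter bta-miR-23b-3p was 29.4% (95% Wilson interval 27.2% to 31.6%), 43.3% (40.9% to 45.8%) and 38.3% (36.0% to 40.6%) in control cows. In the tested cows it was 48.1% (45.0% to 51.1%), 83.0% (81.2% to 84.7%) and 6.62% (5.65% to 7.75%). These intervals hold counting error alone, because PCR copies are not independent molecules. The pair held 1053 to 2160 counts per cow, and the tested cows lay on both sides of the control cows. As a log2 ratio of the longer to the shorter row, the means were 0.78 ± 0.447 (SD, n = 3, control) against 0.55 ± 3.07 (SD, n = 3, tested), with an exact permutation test (p = 0.8, adjusted over 9 ratios 1). Among the known miRNAs, 8 pairs had a listed sequence lying wholly inside another, and 3 of them had at least 1000 counts. The share of the shorter row ran over 76.4 percentage points between cows in the miR-23b 3p pair, over 61.6 in bta-miR-339b with bta-miR-339a and over 13.9 in bta-miR-11975 with bta-miR-11976.

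**Figure D3:**
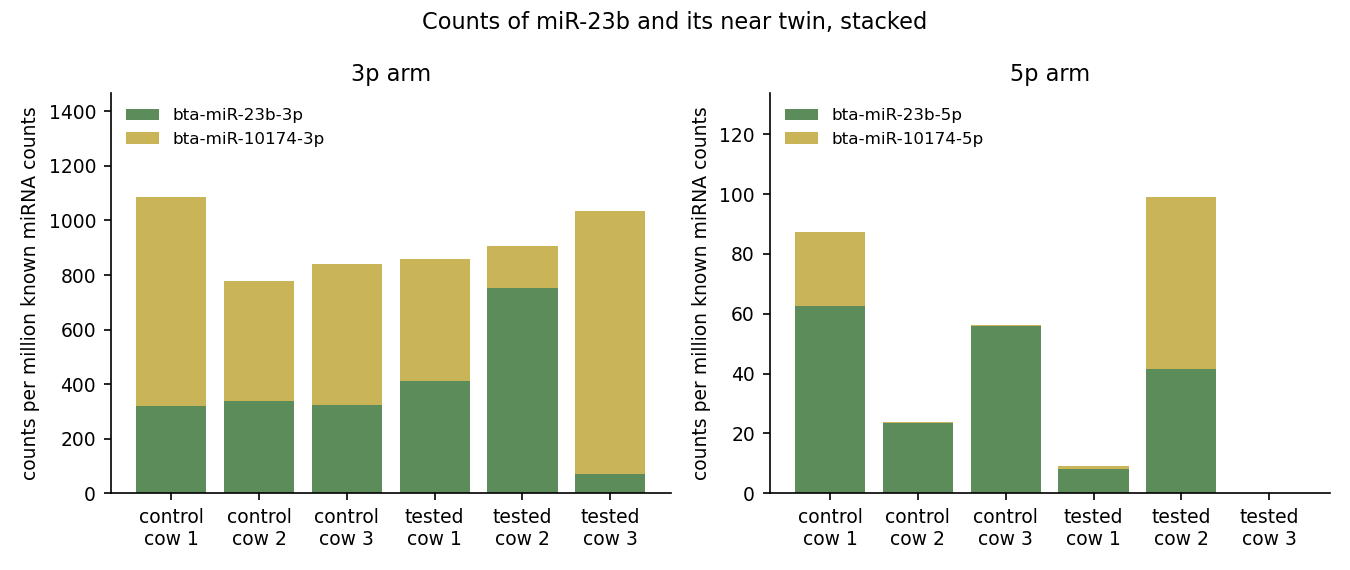
Stacked levels of bta-miR-23b (green) and bta-miR-10174 (yellow) in each cow for the 3p arm (left) and the 5p arm (right), in CPM of the known miRNA counts. On the 3p arm the stacks reach 777 to 1086 while the green part goes from 68.5 to 753, and on the 5p arm tested cow 3 has no count.

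The 5p arm of miR-23b is the strand that is usually degraded. Counts of bta-miR-23b-5p were 96, 47 and 111 in control cows, against 10, 78 and 0 in tested cows. Counts of bta-miR-10174-5p were 38, 1 and 1 in control cows, against 1, 108 and 0 in tested cows, so that control cow 1 and tested cow 2 held nearly all of them. The count of 0 in tested cow 3 allows a level of up to 1.44, the level of 3 counts. In tested cow 2 the shorter row took 83.0% of the 3p pair but 41.9% of the 5p pair (95% Wilson interval 35.1% to 49.1%).

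The 5p pair made up 7.43%, 2.99% and 6.27% of the counts of both arms in control cows, against 1.03%, 9.84% and 0% in tested cows. The last allows up to 0.139%, again for 3 counts. Tested cow 2 was the highest and the groups overlapped. For the rows bta-miR-23b-5p and bta-miR-23b-3p taken singly, the ratio did not overlap between groups. Its log2 values were -2.35, -3.83 and -2.52 in control cows, against -5.59, -4.17 and -8.16 in tested cows, the last resting on the pseudocount of 0.5 (exact permutation test, p = 0.1, adjusted over 9 ratios 0.9). With the pairs summed, the groups overlapped and p was 0.4 (exact permutation test). The difference of the mean log2 ratios was then -3.08, which also rested on the pseudocount in tested cow 3, and it was -0.68 without that cow. The ratio of the single rows was the only one of the 9 without overlap, and 0.1 is the smallest p that 3 cows against 3 allow.

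Ratios were next taken between the members of each cluster, within a library. bta-miR-27b was 28.7, 25.4 and 28.2 times bta-miR-23b-3p in control cows, against 20.0, 11.9 and 127 times in tested cows. On the log2 scale this ratio spanned 3.42 between cows. Against the summed 3p pair it spanned 0.38, from 3.07 to 3.46. In the other cluster, bta-miR-27a-3p was 0.227, 0.153 and 0.176 times bta-miR-23a in control cows, against 0.169, 0.273 and 0.2 times in tested cows, a span of 0.84 on the log2 scale. Control cow 3 lay inside this range although both miRNAs were low there. Across the clusters, bta-miR-27b was 16.5, 22.9 and 45.0 times bta-miR-27a-3p in control cows, against 20.0, 13.3 and 17.6 times in tested cows. The highest value was that of control cow 3. The difference between the groups in this log2 ratio was -0.62 (exact permutation test, p = 0.3, adjusted 0.9), and leaving out control cow 3 gave -0.22, control cow 1 -0.94.

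The counts of bta-miR-451 were 2.94, 1.70 and 2.76 times those of bta-miR-23a in control cows, against 7.14, 1.19 and 0.681 times in tested cows. The tested group held both the highest cow and the lowest cows, with mean log2 ratios of 1.26 ± 0.435 (SD, n = 3) for control and 0.84 ± 1.77 (SD, n = 3) for tested cows (exact permutation test, p = 0.8, adjusted 1). The red cell markers bta-miR-451, bta-miR-144 and bta-miR-486, 3 of 3 with counts in every library, summed to a level of 59608 in tested cow 1 and to between 8621 and 28434 in the other cows. In tested cow 1 the level of bta-miR-27b was its lowest, 8239, and that of bta-miR-23a was 2429. The 5 platelet and vessel markers summed to 36.2 in control cow 3, where bta-miR-23a and bta-miR-27a-3p were lowest, and to between 77.7 and 285 in the other cows. The next lowest sum, 77.7, was that of tested cow 2, where bta-miR-27a-3p was highest at 672 and bta-miR-23a stood at 2465. In CPM scaled by TMM, bta-miR-126-5p, bta-miR-126-3p and bta-miR-223 were singly lowest in control cow 3. The markers bta-miR-221 and bta-miR-222 were lowest in tested cow 3. The 3 white cell markers present, of 4 listed, summed to between 78.1 and 428. The part of these markers in the members' levels was not tested.

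**Figure D4:**
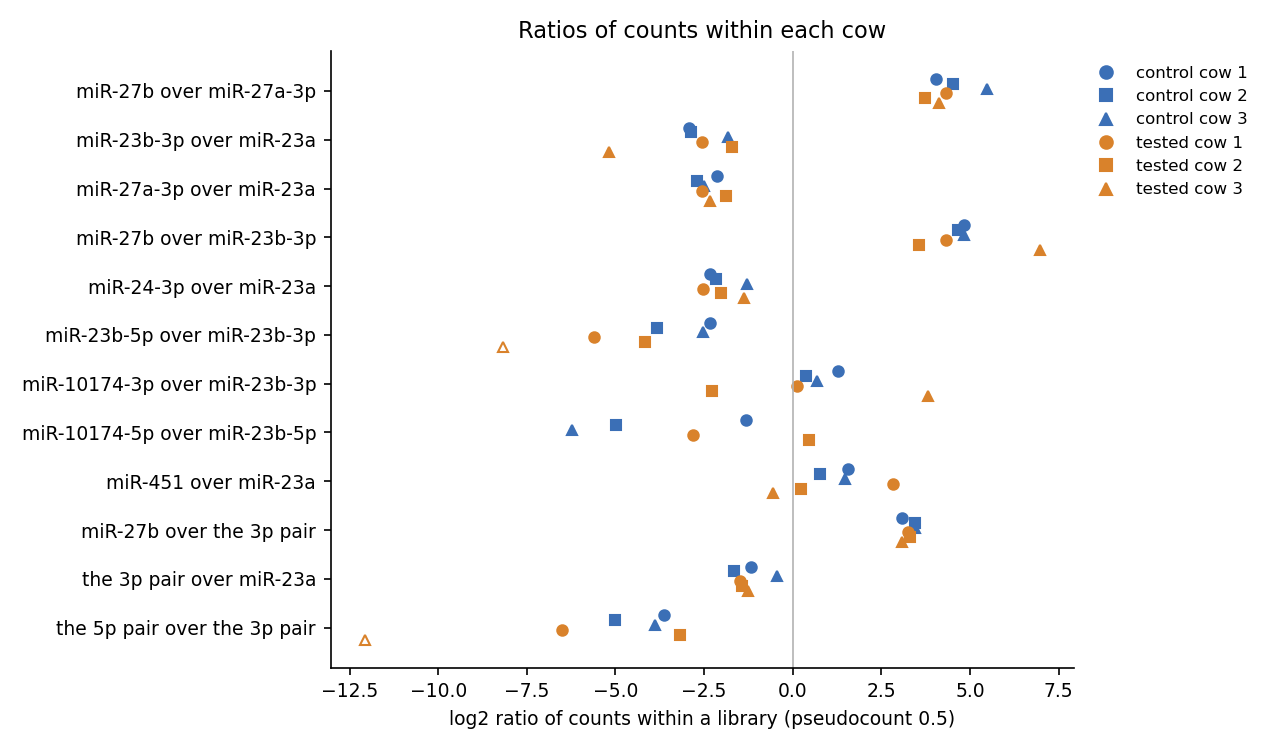
Log2 ratio of the counts of named miRNAs within each library (pseudocount 0.5), with control cows in blue and tested cows in orange, and open symbols where the 5p count was 0. The 3p and 5p pairs are bta-miR-23b and bta-miR-10174 summed per arm. For bta-miR-10174-5p over bta-miR-23b-5p, no symbol is drawn for tested cow 3, where both rows were at 0. bta-miR-27b over bta-miR-23b-3p spans 3.42 between cows, and 0.38 over the summed 3p pair.

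For the diets, a quasi-likelihood F test (edgeR) was fitted to the 623 miRNAs with at least 10 counts in all, the 8 members among them. A miRNA was called when its log2 fold change exceeded 1 either way and its unadjusted p was below 0.05, a positive value meaning higher in the tested group. None of the 8 members was called, against 20 of the 623 (3.21%). Without the fold limit, 0 of the 8 members and 4.65% of the 623 had p below 0.05. DESeq2, which gave a p for 7 of the members, and limma also had 0 members below it, against 4.91% of 611 and 3.69% of 623 miRNAs. The adjusted p of the members ran from 0.728 to 0.948. The log2 fold change was positive for 5 of the 8 and for 333 of the 623, with medians of 0.29 and 0.07. The members' median was not stable, at -0.15 with 3 of 8 positive when the replicate number was a block, 0.08 with 4 of 8 in limma, 0.12 with 3 of 6 when the pairs were summed and -0.01 with 4 of 8 without tested cow 2. By level, the groups overlapped for all 8 members, where 8.01% of the 312 known miRNAs tested did not overlap.

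The precision differed between the members. bta-miR-27b had a mean level of 8929 ± 339.5 (SD, n = 3, control) against 8631 ± 354 (SD, n = 3, tested), with a log2 fold change of -0.11 (SE 0.168, 95% interval -0.47 to 0.25). A change of 2-fold either way lay outside this interval. The log2 fold change was -0.22 without control cow 2, -0.03 without control cow 3, -0.19 without tested cow 2 and -0.06 without tested cow 3. bta-miR-23a averaged 2009 ± 747 (SD, n = 3) in control and 2457 ± 25.5 (SD, n = 3) in tested cows, and its log2 fold change was 0.25 (SE 0.286, 95% interval -0.36 to 0.87). It was 0.01 without control cow 3. bta-miR-24-3p averaged 499.8 ± 39.9 (SD, n = 3) in control and 661 ± 269 (SD, n = 3) in tested cows, and its log2 fold change was 0.33 (95% interval -0.48 to 1.13). It was 0.05 without tested cow 3 and 0.56 without tested cow 1. bta-miR-27a-3p averaged 376 ± 176 (SD, n = 3) in control and 526 ± 133 (SD, n = 3) in tested cows, and its log2 fold change was 0.47 (95% interval -0.48 to 1.41). It was 0.18 without tested cow 2, 0.21 without control cow 3 and 0.80 without control cow 1.

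For bta-miR-23b-3p the log2 fold change was 0.33 (95% interval -1.08 to 1.75) and for bta-miR-10174-3p it was -0.25 (95% interval -1.36 to 0.87). The value of bta-miR-10174-3p was -0.53 in limma, -0.54 with the replicate number as a block and -0.15 on library sizes without TMM factors. With the 3p pair summed before the fit the log2 fold change was -0.01 (95% interval -0.65 to 0.63). The 5p rows were the least precise, with -1.49 for bta-miR-23b-5p (95% interval -4.76 to 1.79) and 1.3 for bta-miR-10174-5p (95% interval -3.58 to 6.18). The value of bta-miR-23b-5p was -3.60 without tested cow 2, -0.90 without tested cow 3, -2.60 in limma and -3.0 with the replicate number as a block. That of bta-miR-10174-5p was 0.32 in limma and 1.37 in DESeq2. With the 5p pair summed before the fit the log2 fold change was -0.59 (95% interval -3.77 to 2.59). In the tests of 13 levels and sums, the smallest p was 0.2, for bta-miR-23b-5p, and the smallest adjusted p was 0.827 (exact permutation test). The sum of the 8 members was 12771 ± 989.7 (SD, n = 3, control) against 13244 ± 758 (SD, n = 3, tested), with an exact permutation test (p = 0.7, adjusted 0.827).

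**Figure D5:**
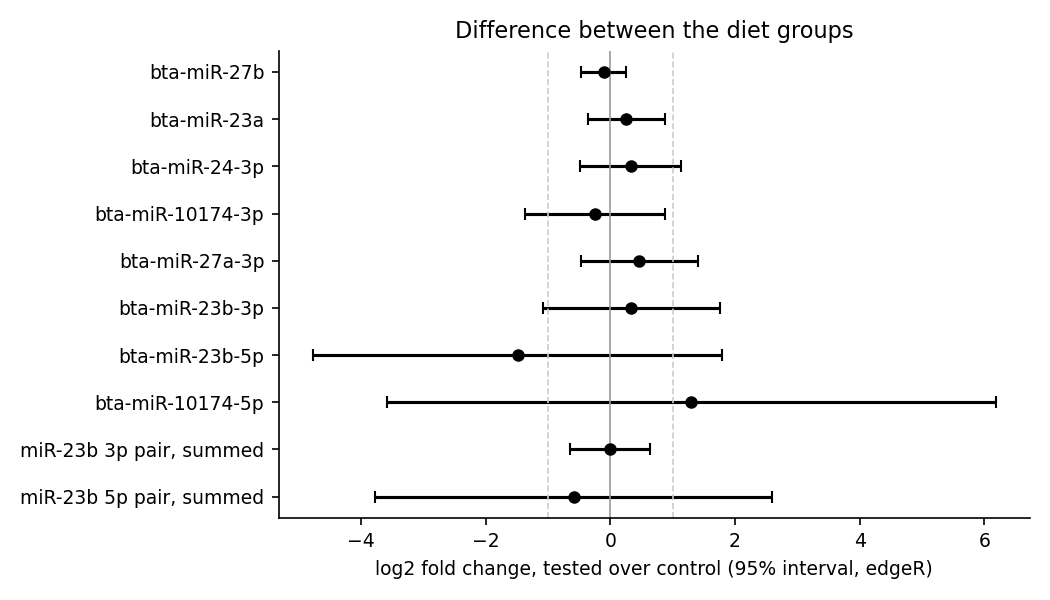
Log2 fold change of tested over control cows from edgeR with its 95% interval for the 8 miRNAs and for the miR-23b pairs summed per arm, with dashed lines at changes of 2-fold. Every interval includes 0, and that of bta-miR-27b runs from -0.47 to 0.25.

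The known miRNAs with a pattern most like that of bta-miR-24-3p over the 6 cows were bta-miR-345-5p, bta-miR-30c and bta-miR-29a. Their centred log2 CPM differed from it by root mean squares of 0.23, 0.24 and 0.26, against a median of 0.45 over 110 known miRNAs. Nearest to the sum of the 8 members were bta-miR-30d with 0.09, bta-miR-30a-5p with 0.09 and bta-miR-21-5p with 0.09, against a median of 0.29 over 105. Most of the sum was bta-miR-27b, and as a level the sum varied little, with a coefficient of variation of 6.38%. Those of bta-miR-30d, bta-miR-30a-5p and bta-miR-21-5p were also small, at 5.86%, 9.21% and 8.46%.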

How the data were processed

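The authors sequenced serum EV small RNAs with 1 library per cow, filtered the reads by quality and length, matched them to the bovine genome (their processing notes name cutadapt 1.14 and Bowtie), took known miRNAs from miRBase and predicted others with miRDeep2. They deposited whole-number counts without normalization. A further table that the authors deposited as TPM holds RPM values, the counts divided by the clean reads of each library (11048676 to 24187264). Their fold changes, test statistics and p-values and their list of called miRNAs were not used.

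R 4.3.3 with edgeR 4.0.16 (TMM, glmQLFit, glmQLFTest) was run on miRNAs with a summed count of at least 10. Benjamini-Hochberg adjustment ran over all 623. DESeq2 1.42.0 and limma 3.58.1 on log2(CPM + 1) were alternatives. Levels and log2 ratios (pseudocount 0.5) were compared by two-sided exact permutation tests in Python 3.11.15 with SciPy 1.17.1. The replicate is the cow. The fitting code was tested on simulated data. Members, marker lists and tests were chosen with earlier results of these data known. The rule named the members, any relative by seed or within 2 edits, of which there was none outside the members, red cell markers and the 3 nearest patterns to bta-miR-24-3p and to the sum. The other nested pairs, bta-miR-24, the spread between cows and the summed arm ratio without tested cow 3 were chosen after the data were seen. Gene neighbours come from the RefSeq table of ARS-UCD2.0, a later build than the ARS-UCD1.2 of the reads, so no coordinates are given. The counting tool is not given in the sources used here.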

Additional observations from a re-analysis of the deposited data

How the results depend on the processing

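With 3 cows per group the exact tests between groups could not pass 0.05. The 5p sequences had the fewest counts, and the level of the 5p pair had a coefficient of variation of 90.3% over the cows. No member that could be tested passed under any of the 15 alternatives to the edgeR fit that were run, and bta-miR-10174-5p had no p from DESeq2 or with filterByExpr. The count over all miRNAs was 20 of 623 (3.21%), and it was 6 of 312 (1.92%) with known miRNAs only, 13 of 348 (3.74%) with filterByExpr and 12 of 623 (1.93%) with the replicate number as a block. Deviations of same-numbered cows from their group means, over all miRNAs fitted, correlated at -0.06, -0.05 and -0.02. Many of these miRNAs had few counts, so the correlations cannot tell whether the numbers pair the cows. In the fit with the block, the log2 fold change was -0.20 for bta-miR-23b-3p and -1.45 for bta-miR-10174-5p. For bta-miR-23b-3p it was also negative with limma, at -0.29, and with the pair summed, at -0.0095, which is the pair's own value. Scaled to clean reads, the difference tested minus control was -16.0 for bta-miR-23a, -3.19 for bta-miR-24-3p, -415 for all 8 members, -45.0 for the miR-23 3p sum and -28.9 for the miR-23b 3p pair, in deposited units. In CPM scaled by TMM it was -18.8 for all 8 and -4.34 for the 3p pair. With the pair summed, the log2 ratio of bta-miR-27b to bta-miR-23b-3p differed by -0.11 in place of 0.18. The causes were not tested.

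Leaving out 1 cow at a time turned the sign of some differences, none of which had passed a test. The log2 fold change ran from -0.51 to 0.85 for bta-miR-23b-3p, from -0.96 to 0.17 for bta-miR-10174-3p and from -4.25 to 5.11 for bta-miR-10174-5p. In level, the difference ran from -85.3 to 257 for bta-miR-23b-3p, from -276 to 131 for bta-miR-10174-3p, from -8.17 to 20.6 for bta-miR-10174-5p, from -2.87 to 985 for all 8 members, from -30.3 to 124 for the 3p pair and from -369 to 105 for miR-27. As log2 ratios to bta-miR-23a, the range was -1.32 to 0.41 for bta-miR-23b-3p, -0.34 to 0.27 for bta-miR-24-3p and -1.41 to 0.28 for bta-miR-451. To bta-miR-23b-3p it was -0.83 to 0.88 for bta-miR-27b and -1.87 to 1.18 for bta-miR-10174-3p. The rank of the spread of bta-miR-27b ran from 1 to 5, and 5 was without control cow 3.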

Other observations

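The row bta-miR-24, chosen after its values were seen, lists a sequence from the 5p arm of miR-24. It had 25 counts in control cow 2, 20 in tested cow 2 and 0 in the other cows.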
